A study of Mus musculus with 32 samples.

Results

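The endoplasmic reticulum (ER) folds the proteins that a cell secretes or displays, and 32 genes of its folding and stress programme were followed here in sorted intestinal stem cells of mice. The genes were chosen by name, as ER chaperones, genes of the unfolded protein response and genes of the amino acid stress response. Earlier results of these data were known when the genes were chosen. All 32 were found among the 54418 gene identifiers of the count table, and 23 of them had enough counts to be tested. The stem cells came from C57BL6 mice and were sorted as GFP-high, CD326-stained epithelial cells after crypt isolation, and their polyadenylated RNA was counted near the 3' end of each transcript. The 8 groups of 4 libraries crossed genotype and diet: WT (wildtype), PparD (Ppard-fl/fl), PparA (Ppara-null) and PparDA (both alleles), each on control or high-fat feeding. The question was what high-fat feeding does to intestinal stem cells, and Ppara and Ppard encode nuclear receptors that fatty acids activate. The labels name neither the Cre that would act on the floxed Ppard allele nor the animals' age or the length of the diet. Nor do they state whether all 4 libraries of a group came from separate mice. Sex-linked transcripts, given below, differed within every group, so each group held RNA of at least 2 mice, and each p measures the spread between these samples, part of which may be technical.

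Newly made secretory proteins enter the ER through the translocon, are bound by Hsp70 and Hsp90 chaperones and by lectin chaperones, and are given their disulfide bonds by isomerases. Chains that fail to fold are returned to the cytosol for degradation. When unfolded chains accumulate, the sensors Ire1, Perk and Atf6 start the unfolded protein response: Ire1 splices Xbp1 mRNA, Atf6 is cleaved into a transcription factor, and Perk signalling favours translation of Atf4, which also answers to a lack of amino acids. In the intestine, Paneth and goblet cells carry a large secretory load, and Xbp1 is known to be needed for their upkeep. A 3' count does not tell spliced from unspliced Xbp1, nor the translated or cleaved state of Atf4 and Atf6.

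Stress factors are known to act through short promoter elements, so stretches that hold one are shown first. Promoter windows of 250 bases before the RefSeq start (GRCm38.p6) were found for 28 of the 32 genes. Atf6, Derl1, Hyou1 and Manf had no entry. On both strands, the ER stress response element, CCAAT and CCACG with 9 bases between them, occurred in 37 of 32851 mouse promoter windows (0.113%). It was found in 8 of the 28 genes: Calr, Canx, Creld2, Dnajc3, Hsp90b1, Hspa5, Pdia6 and Syvn1. The second ER stress response element, ATTGG and CCACG with 1 base between them, occurred in 10 windows (0.0304%), among them that of Herpud1. The Xbp1-binding element TGACGTGG occurred in 185 windows (0.563%) and in none of the 28 genes. The amino acid response element TGATGNAAN occurred in 1129 windows (3.44%), those of Asns, Chac1 and Herpud1 included. No 2 of these matches overlapped within a member. Below, capitals mark the ER stress response element in the first 5, the second ER stress response element in Herpud1 and the amino acid response element in Asns. The stretches are those of the gene strand, from chr2:34771990-34772078 (Hspa5, plus strand), chr10:86705533-86705656 (Hsp90b1, minus), chr14:118937792-118937880 (Dnajc3, plus), chr15:88819485-88819573 (Creld2, plus), chr8:84847040-84847128 (Calr, minus), chr8:94386338-94386426 (Herpud1, plus) and chr6:7693210-7693257 (Asns, minus). These genes are shown because their values carry results given below. Those results concern high values of several chaperones in 1 library, the runs, Herpud1 and amino acid stress.
Hspa5: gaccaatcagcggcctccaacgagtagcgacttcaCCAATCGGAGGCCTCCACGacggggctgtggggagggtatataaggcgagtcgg
Hsp90b1: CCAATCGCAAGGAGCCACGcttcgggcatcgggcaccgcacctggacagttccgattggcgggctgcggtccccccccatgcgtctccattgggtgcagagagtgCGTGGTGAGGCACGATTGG
Dnajc3: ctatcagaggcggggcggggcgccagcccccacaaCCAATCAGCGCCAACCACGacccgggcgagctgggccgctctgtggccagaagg
Creld2: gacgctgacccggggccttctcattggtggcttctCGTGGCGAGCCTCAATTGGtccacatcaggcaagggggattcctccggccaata
Calr: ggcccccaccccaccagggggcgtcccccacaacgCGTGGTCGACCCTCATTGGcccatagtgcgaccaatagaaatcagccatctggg
Herpud1: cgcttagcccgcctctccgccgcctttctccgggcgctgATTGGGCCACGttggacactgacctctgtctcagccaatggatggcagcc
Asns: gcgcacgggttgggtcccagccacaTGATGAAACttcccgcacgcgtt
A match of letters is a description of the sequence and not a measured binding site.

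Library totals ran from 612672 to 724155 counts. Library numbers, from the column names, form 4 runs of 8, and each run holds every group once. Runs 1 and 3 had 479 to 956 CPM of the female-specific Xist and 0 of the Y-linked Ddx3y. Runs 2 and 4 had at most 9.98 CPM of Xist and 14.6 to 39.9 CPM of Ddx3y. Values of a group are listed below in the order of runs 1 to 4, in CPM (counts scaled to library size with TMM factors). Ppara had 0 to 5 counts a library and Ppard 0 to 7, which is too few to check the genotype labels. The stem cell list was at 9285 to 15529 summed CPM, with Olfm4 at a mean of 10913 CPM and Lgr5 at 45.6 CPM. Markers of other epithelial cells were present too: Paneth genes summed to 2500 to 55325 CPM, goblet genes to 1560 to 8260 CPM and enterocyte genes to 1261 to 4690 CPM. No lymphocyte marker of 16 passed the filter on low counts, and the list summed to 2.94 to 30.2 CPM. Of 12 stromal and endothelial markers, Col3a1, Dcn, Pdgfra, Cdh5 and Kdr were at 0 in every library, while Pecam1 passed the filter at a mean of 12 CPM, and the list summed to 3.11 to 20.5 CPM. Of 10 plasma cell markers, Iglc2 and Tnfrsf17 were at 0 in every library, and only Sdc1, which epithelial cells also express, passed the filter, at a mean of 23.4 CPM. In sorted bulk RNA, fewer cells of a type and less RNA per cell cannot be told apart.

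Of the 9 untested genes, most were counted at a few reads per library. Dnajb9, a cochaperone that Xbp1 induces, had 155 counts over the 32 libraries, Hyou1, the exchange factor of Hspa5, had 122, and Ddit3, the stress factor known as CHOP, had 105. Edem1, which marks misfolded glycoproteins for disposal, had 99 counts, Sdf2l1, a cofactor of Hspa5, had 76, and Syvn1, the ubiquitin ligase of ER-associated degradation, had 36. The Atf4 targets Sesn2 and Trib3 had 8 counts and 1 count in all. Chac1, an Atf4 target that degrades glutathione, had 0 counts, which allows a level of up to 0.140 CPM (3 counts over all libraries). Differences of these genes between groups were not tested. The limit covers counting error only, and whether molecular identifiers were counted is not given in the sources used here.

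Diet left no tested member past the threshold (edgeR quasi-likelihood test, Benjamini-Hochberg adjusted p under 0.05 over 5872 genes). The count of members called was 0 of 23 for high-fat against control diet in WT (background 0.102% of all genes), in PparD (0.0851%), in PparA (0.136%) and in PparDA (0.0341%). At an unadjusted p under 0.05 the counts were 2, 2, 0 and 2 members, beside 7.66, 4.99, 5.79 and 8.79% of all genes. The diet effect averaged over the 4 genotypes also called 0 members (0.324%), and 0 members met an unadjusted p under 0.05 (9.04% of all genes). DESeq2 called 0 members in each of these 5 comparisons, but its own filter left an adjusted p for only 19 members in PparA, 7 in PparDA and 18 in the average. The members' median log2 change over genotypes was 0.07, against -0.01 for all genes, and the SE of a member in that contrast ran from 0.05 to 0.31. In simulated data with these groups but no differences between runs, a 2-fold change was called in 44% of changed genes for diet in WT. A 1.5-fold change was called in 18%. The diet effects of PparD, PparA and PparDA minus that of WT called 0 members each, where the backgrounds were 0.0511, 0.153 and 0%. There the unadjusted counts were 2, 1 and 1, beside 3.61, 8.19 and 5.77% of all genes, and DESeq2 again called 0.

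**Figure D1:**
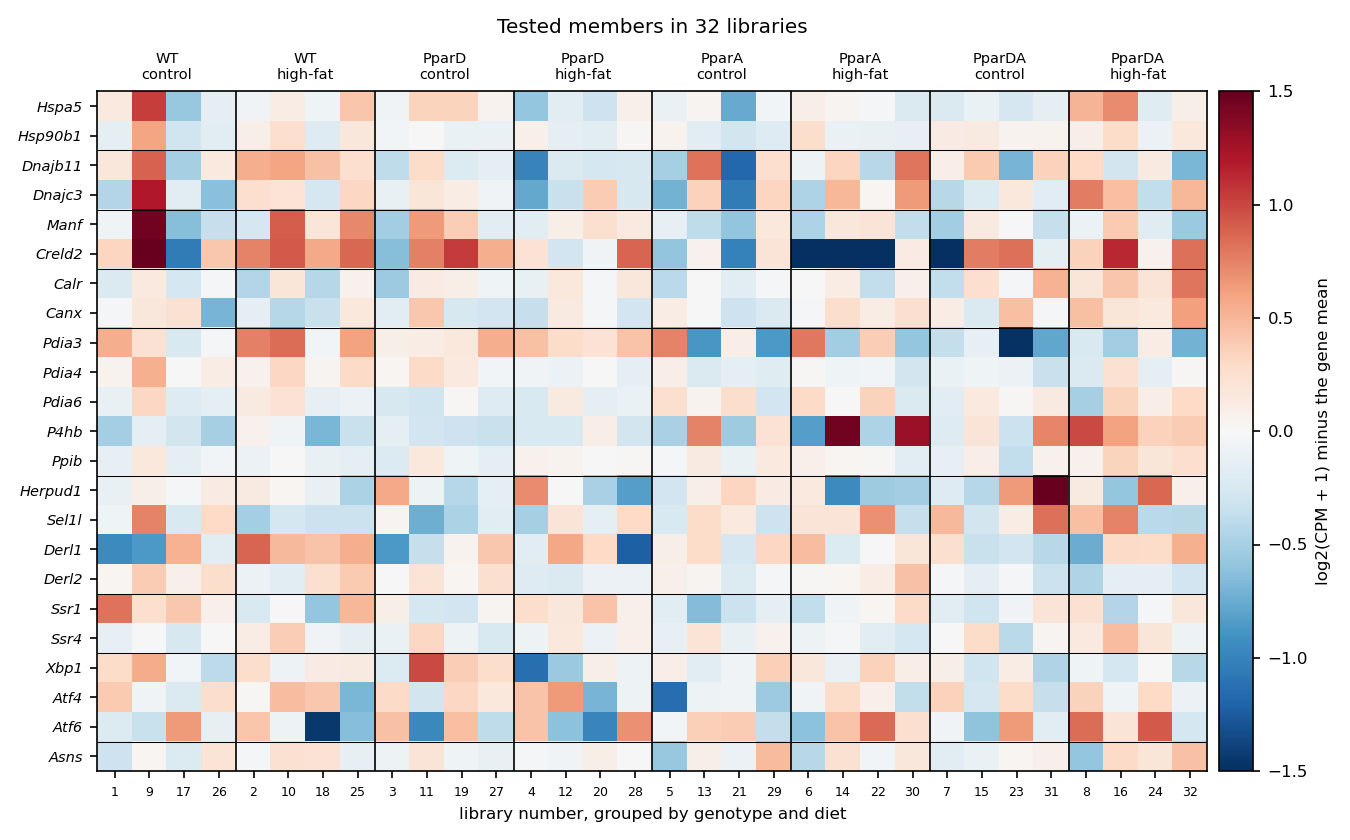
Each row is 1 of the 23 tested members, ordered by role, and each column 1 of the 32 libraries, grouped by genotype and diet. Colour gives log2(CPM + 1) minus the mean of that gene over all libraries; WT control library 9 is red in Hspa5, Hsp90b1, Dnajc3, Manf and Creld2, while P4hb and Pdia3 vary most in the PparA and PparDA columns.

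The Hsp70 and Hsp90 chaperones came first by role. Hspa5 (BiP), the Hsp70 of the ER, read 118, 220.1, 71.5 and 96.8 CPM in WT control libraries and 103, 115, 102 and 143 CPM in WT high-fat libraries. In PparD it read 103, 135, 135 and 110.4 CPM on control and 71.2, 95.5, 85.6 and 113 CPM on high-fat diet. The WT control library of run 2 was the highest of all 32, and 3 of the 4 PparD high-fat libraries lay below every PparD control library. In PparA the values were 99.5, 109, 62.6 and 104 CPM on control and 113, 109.8, 106 and 91.4 CPM on high-fat diet. In PparDA they were 91.4, 99.4, 89.3 and 96.3 CPM on control and 153, 175, 93.9 and 113 CPM on high-fat diet. The PparA groups overlapped, and so did the PparDA groups, through the high-fat library of run 3. The largest diet difference of Hspa5 was in PparDA, 0.51 ± 0.23 (SE; adjusted p = 0.528), and the mean over genotypes was 0.03 ± 0.12 (SE; adjusted p = 0.973).

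Hsp90b1 (Grp94), the Hsp90 of the ER, read 226, 376, 204 and 223 CPM in WT control libraries and 266, 297, 218 and 283 CPM in WT high-fat libraries. PparD libraries held 243, 248, 233 and 234 CPM on control and 264, 225, 223 and 254 CPM on high-fat diet. Apart from the 376 CPM of the WT control library of run 2, these values lay close together. PparA libraries held 259.6, 224, 207 and 218 CPM on control and 300.1, 233, 231 and 229 CPM on high-fat diet. PparDA libraries held 273, 276, 260.1 and 259 CPM on control and 266, 303, 236 and 279.9 CPM on high-fat diet. The 2 diets overlapped in each genotype, and the mean diet difference was 0.05 ± 0.07 (SE; adjusted p = 0.908). The exons of Hsp90b1 overlap those of 1810014B01Rik on the other strand, which had 505 counts against 5282, and whether the counting used strand is not given in the sources used here.

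Among the Hsp70 cofactors, Dnajc3 (p58IPK) read 15.1, 49.4, 18.7 and 13.2 CPM in WT control and 25, 24.3, 17.4 and 26.2 CPM in WT high-fat libraries. Its PparD values were 19.4, 23.8, 22.7 and 20.1 CPM on control and 11.9, 16.4, 27.6 and 17.6 CPM on high-fat diet. The 49.4 CPM of WT control run 2 stood above all other libraries. Its PparA values were 12.4, 27, 9.63 and 26.4 CPM on control and 14.9, 29.9, 21.4 and 33.3 CPM on high-fat diet, with runs 2 and 4 above runs 1 and 3 on both diets. Its PparDA values were 15.5, 18.1, 23.5 and 18.6 CPM on control and 36.2, 28.9, 15.9 and 29.9 CPM on high-fat diet. At 6 to 33 counts a library the gene was thinly sampled, and its mean diet difference was 0.16 ± 0.18 (SE; adjusted p = 0.882). Dnajb11 (ERdj3), another cofactor, spanned 6.42 to 29.9 CPM over the libraries, and its lowest adjusted p in a comparison of diets or genotypes was 0.368, for Ppard-fl/fl.

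Manf and Creld2 encode small secreted proteins that ER stress induces. Manf read 53.6, 154, 35.8 and 44 CPM in WT control and 47.1, 106, 63.9 and 93.2 CPM in WT high-fat libraries. In PparD, Manf read 38.7, 87.7, 72.7 and 50.2 CPM on control and 50.4, 59.7, 66.7 and 61.6 CPM on high-fat diet. Again the WT control library of run 2 was the highest, and the diets overlapped. In PparA, Manf read 51.3, 42.8, 36.9 and 63 CPM on control and 40.3, 63.2, 64.3 and 43.2 CPM on high-fat diet. In PparDA, Manf read 38.7, 61.8, 56.4 and 43.9 CPM on control and 52.6, 73.8, 49.3 and 37.7 CPM on high-fat diet. These 16 Ppara-null values reached at most 73.8 CPM and lay inside the range of the other libraries, and the Ppara-null difference was -0.40 ± 0.17 (SE; adjusted p = 0.179).

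Creld2 read 9.63, 28.4, 3.11 and 10.3 CPM in WT control and 13.2, 15.2, 11.6 and 14.6 CPM in WT high-fat libraries. In PparD, Creld2 read 4.47, 13.4, 16.7 and 11.5 CPM on control and 8.89, 5.97, 7.25 and 14.7 CPM on high-fat diet. In PparA it read 4.66, 7.93, 3.21 and 8.79 CPM on control and 0, 1.66, 0 and 8.31 CPM on high-fat diet. The PparA high-fat libraries of runs 1 and 3 had 0 counts. In PparDA, Creld2 read 1.55, 13.6, 14.1 and 6.76 CPM on control and 9.87, 17.6, 7.96 and 14.2 CPM on high-fat diet. PparA against WT on the high-fat diet gave -2.40 ± 0.71 (SE; adjusted p = 0.108), at 0 to 19 counts a library. In a fit with no filter on low counts this difference was called (-2.42, adjusted p = 0.00163). Creld2 lies on chromosome 15, as Ppara does, and the part of alleles linked to the Ppara-null locus was not tested.

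**Figure D2:**
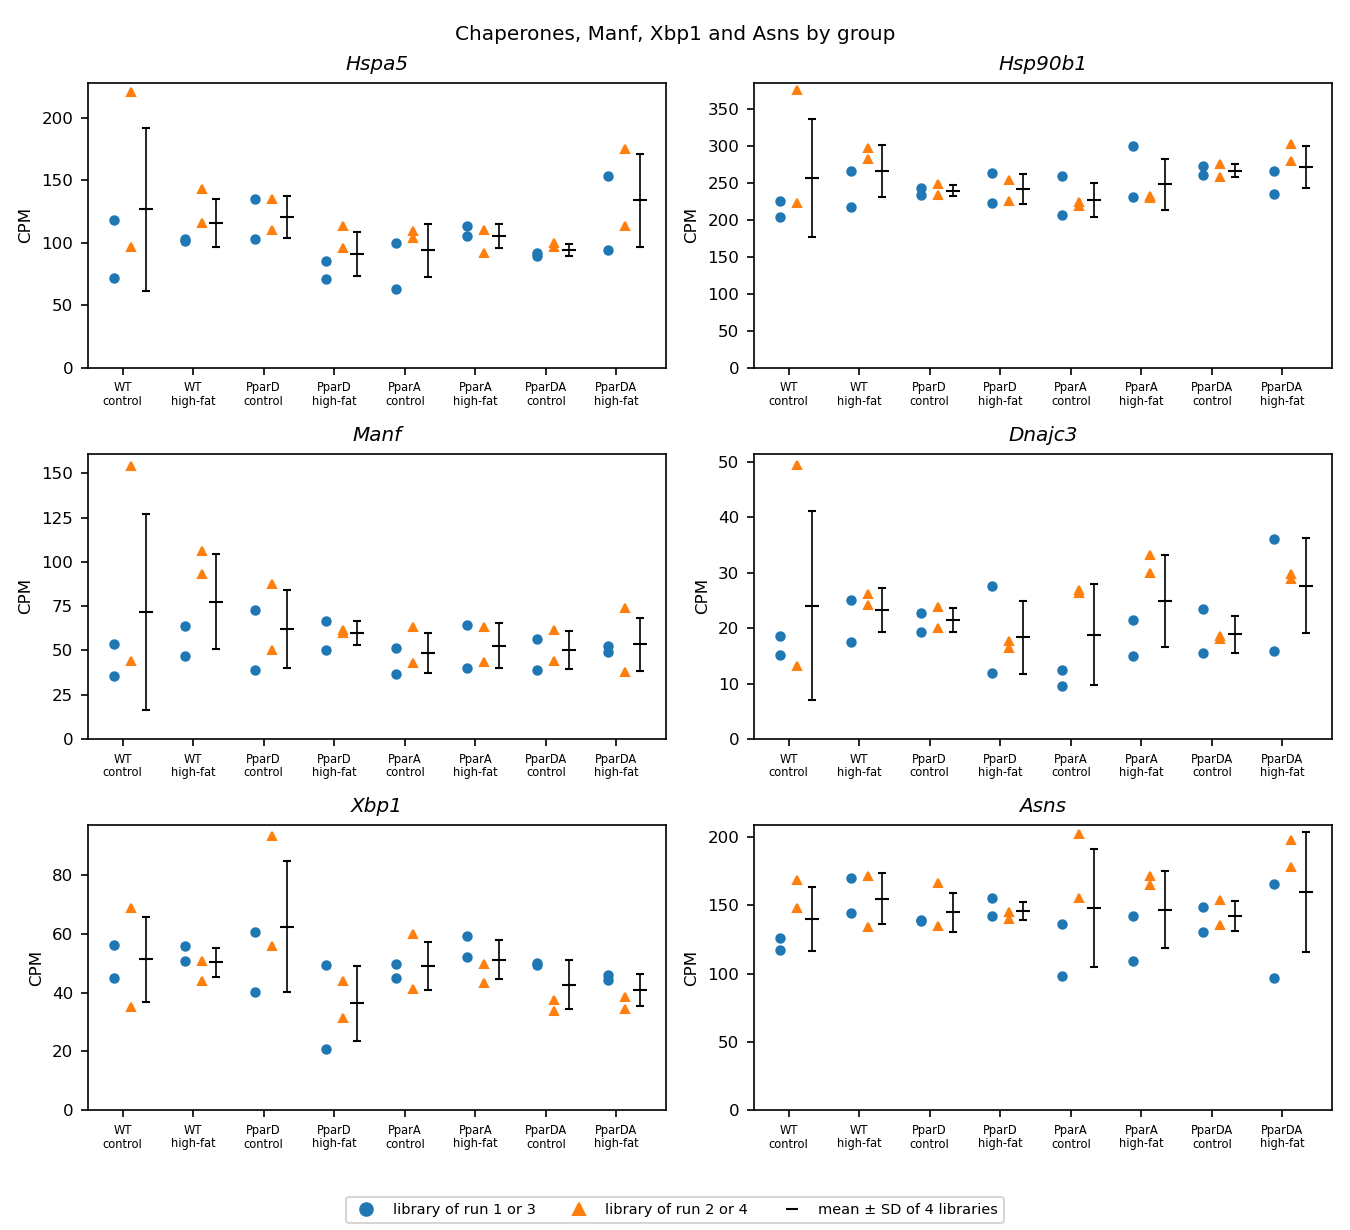
CPM of Hspa5, Hsp90b1, Manf, Dnajc3, Xbp1 and Asns in the 8 groups, with 1 point per library (circles for runs 1 and 3, triangles for runs 2 and 4) and the mean ± SD of 4 libraries beside them; every axis starts at 0. The WT control library of run 2 is the highest point for Hspa5 (220.1 CPM), Hsp90b1 (376 CPM), Manf (154 CPM) and Dnajc3 (49.4 CPM).

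The lectin chaperones calreticulin (Calr) and calnexin (Canx) hold glycoproteins until they fold. Calr read 103, 133, 99.5 and 117 CPM in WT control and 88.3, 137, 88.6 and 125 CPM in WT high-fat libraries. For PparD the Calr values were 81.9, 131, 127 and 115 CPM on control and 111, 134, 117 and 135 CPM on high-fat diet. In 3 of these 4 groups both libraries of runs 2 and 4 stood above both of runs 1 and 3. For PparA the Calr values were 90.2, 119, 108 and 117 CPM on control and 119, 129.7, 92.4 and 126 CPM on high-fat diet. For PparDA they were 92.9, 143, 118 and 172 CPM on control and 137, 160.5, 137 and 209 CPM on high-fat diet. The same order of runs held in all 4 of these groups, so in 7 of 8 groups in all. Runs 2 and 4 against runs 1 and 3, a comparison added after the values were seen, gave 0.36 ± 0.06 (SE; adjusted p = 0.00204) for Calr, the only member called of 23 (background 1.33%). With no filter on low counts 3 members were called there, Calr, Manf and P4hb. The 2 pairs of runs also differ in the sex-linked genes above, so run and sex cannot be told apart.

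Between genotypes, Calr was highest in PparDA on the high-fat diet, 161 ± 34.2 CPM (SD, n = 4), against 109.7 ± 25 CPM (SD, n = 4) in WT on that diet. That difference was 0.55 ± 0.18 (SE; adjusted p = 0.133), and PparDA against WT on the high-fat diet called 0 of 23 members (background 1.57%). An unadjusted p under 0.05 was met by 6 members (13.6% of all genes), and DESeq2 called 0. With the run as a block Calr was called there (0.56, adjusted p = 0.0129), and with the secretory marker sums as covariates as well (0.64, adjusted p = 0.0203). With no filter on low counts, Pdia3 and P4hb were called instead, and in runs 2 and 4 alone Pdia3. Canx spanned 44.0 to 110.1 CPM and gave 0.54 ± 0.19 (SE; adjusted p = 0.167) in the same comparison.

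P4hb, Pdia3 and Pdia4, which are disulfide isomerases, were the members called for Ppara, while the disulfide isomerase Pdia6 was not called. Averaged over Ppard genotype and diet, Ppara-null against the other genotypes called 3 of 23 members (13.0%), beside 7.58% of all genes (445 of 5872). P4hb was higher, 1 of 23, which is about the share of all genes (4.39%), and Pdia3 and Pdia4 were lower, 2 of 23 beside 3.18%. Whether 3 of 23 members exceeds the share of all genes was not tested. DESeq2 called the same 3. With no filter on low counts, P4hb, Pdia3, Manf and Creld2 were called and Pdia4 was not. The members' median was 0.01, against -0.00 for all genes, with 14 members above 0 and 9 below. In simulated data, a 1.5-fold change was called in 72% of changed genes for this contrast.

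P4hb encodes protein disulfide isomerase itself, which is also the small subunit of the microsomal triglyceride transfer protein. It read 67.4, 86.8, 79.3 and 67.5 CPM in WT control, 100.1, 92.6, 59.5 and 75.7 CPM in WT high-fat, 86.4, 78.7, 77.2 and 76 CPM in PparD control and 81.5, 82, 103 and 79.2 CPM in PparD high-fat libraries. These 16 libraries lay between 59.5 and 103 CPM. In PparA, P4hb read 68.4, 162, 65.8 and 111 CPM on control and 53.7, 263, 69.3 and 238 CPM on high-fat diet. In PparDA it read 83.6, 110.0, 76.8 and 161 CPM on control and 192, 146, 123 and 126 CPM on high-fat diet. Of the 16 Ppara-null libraries, 10 lay above all others and 1 below, and in PparA both libraries of runs 2 and 4 exceeded those of runs 1 and 3 on either diet. The means were 80.8 ± 11.4 CPM without and 128 ± 62.5 CPM with the Ppara-null allele (SD, n = 16 each). The log2 difference was 0.64 ± 0.17 (SE; adjusted p = 0.0173), or 1.56-fold.

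Pdia3 (ERp57), the isomerase that works with calnexin and calreticulin, read 99, 79.4, 57.5 and 66 CPM in WT control, 115, 121, 65.4 and 103 CPM in WT high-fat, 71.5, 72.8, 75.7 and 98.9 CPM in PparD control and 91.9, 82, 78.3 and 91 CPM in PparD high-fat libraries. Its PparA values were 113, 36.5, 72.3 and 36.6 CPM on control and 118, 46.6, 87.4 and 44.9 CPM on high-fat diet. The PparA libraries of runs 2 and 4, at 36.5 to 46.6 CPM, were all below those of runs 1 and 3, at 72.3 to 118 CPM. Its PparDA values were 52.7, 61.8, 23.5 and 38.9 CPM on control and 57.6, 46.5, 73.2 and 40.9 CPM on high-fat diet. In all, 9 of the 16 Ppara-null libraries lay below every other library. The log2 difference was -0.54 ± 0.16 (SE; adjusted p = 0.0298). The call was lost without any 1 of 6 libraries, the WT control of run 1 and PparD control of run 4, the PparA control and high-fat libraries of run 2, the PparDA control of run 3 and the PparA high-fat of run 4, with adjusted p of 0.0515 to 0.0549. Pdia3 exons overlap Catsper2 on the other strand, which had 18 counts against 1532.

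Pdia4 (ERp72) read 378, 529, 364 and 393 CPM in WT control, 379.7, 451, 375 and 446 CPM in WT high-fat, 372, 444, 404 and 354 CPM in PparD control and 349.8, 342, 363 and 329 CPM in PparD high-fat libraries. In PparA it read 389, 313, 331 and 322 CPM on control and 369, 348, 355 and 301 CPM on high-fat diet, and in PparDA 339, 349.5, 342 and 289 CPM on control and 313, 427, 329 and 368 CPM on high-fat diet. The ranges overlapped, with 5 of 16 Ppara-null libraries below all others. The log2 difference was -0.19 ± 0.06 (SE; adjusted p = 0.0385), or 1.14-fold lower, and leaving out any 1 of 17 libraries took the adjusted p to 0.0501 to 0.0784. Pdia6 (P5), 0.14 ± 0.08, and the proline isomerase Ppib (cyclophilin B), 0.08 ± 0.05, were not called for Ppara-null (adjusted p = 0.328 and 0.428).

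**Figure D3:**
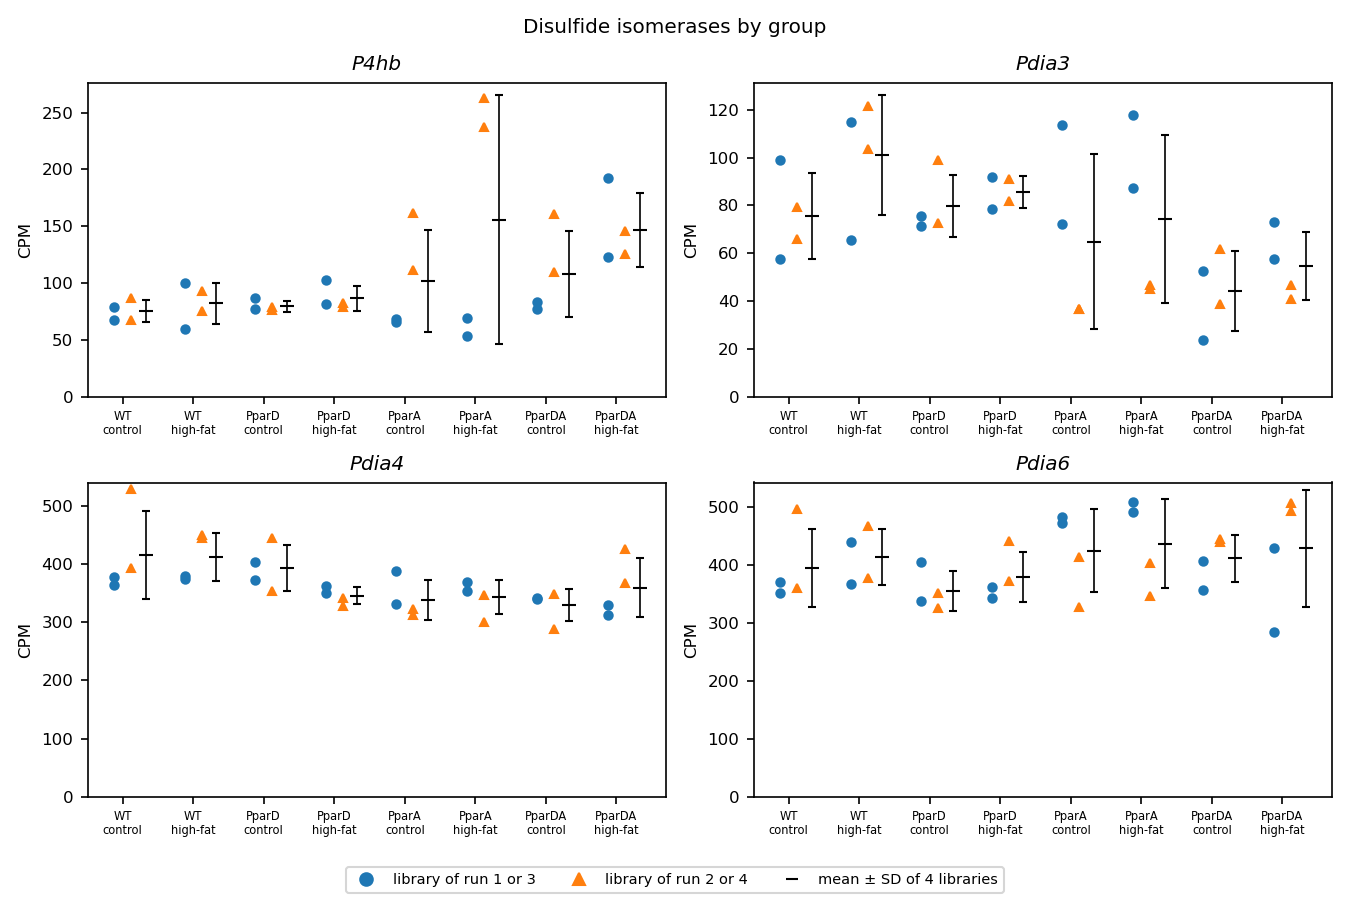
CPM of P4hb, Pdia3, Pdia4 and Pdia6 in the 8 groups, with 1 point per library (circles for runs 1 and 3, triangles for runs 2 and 4) and the mean ± SD of 4 libraries; every axis starts at 0. In PparA the 4 triangles lie above the circles for P4hb (111 to 263 against 53.7 to 69.3 CPM) and below them for Pdia3.

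In PparA the values of P4hb and Pdia3 split by run, with a smaller gap between run means in PparDA. P4hb averaged 64.3 CPM in runs 1 and 3 and 193 CPM in runs 2 and 4 of PparA, and 119 and 136 CPM in PparDA (n = 4 each). Pdia3 averaged 97.8 and 41.1 CPM in PparA, and 51.7 and 47.0 CPM in PparDA. The contrasts below average both genotypes. In runs 2 and 4 alone, P4hb gave 0.99 ± 0.11 (SE; adjusted p = 3.68e-05) and Pdia3 -1.01 ± 0.12 (SE; adjusted p = 5.80e-05). In runs 1 and 3 alone, 0 of 23 members were called, and P4hb gave 0.06 ± 0.13 (SE; adjusted p = 0.954), Pdia3 -0.22 ± 0.18 (SE; adjusted p = 0.763) and Pdia4 -0.11 ± 0.06 (SE; adjusted p = 0.622). The Ppara-null effect in runs 2 and 4 minus that in runs 1 and 3, a test added after the values were seen, called 1 member of 23 (background 0.136%), P4hb at 0.93 ± 0.18 (SE; adjusted p = 0.0294). That call was lost without any 1 of 16 libraries. For Pdia3 the same difference was -0.78 ± 0.23 (SE; adjusted p = 0.303), and it was called only with no filter on low counts.

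Enterocyte markers moved with the same libraries. For Ppara-null, 12 of the 15 tested enterocyte markers were called higher and none lower, with a median log2 difference of 1.54. Mttp, the partner of P4hb in triglyceride transfer, was among them at 0.57 ± 0.16 (SE; adjusted p = 0.0252). The summed enterocyte level was 1261 to 1962 CPM in the 16 libraries without the Ppara-null allele and 1275 to 4690 CPM in the 16 with it. In PparA it was 1275 to 1560 CPM in runs 1 and 3 and 2580 to 4690 CPM in runs 2 and 4, and the Paneth sum was 3330 to 9236 and 17576 to 42981 CPM in the same libraries. None of the enterocyte markers was at 0 in all libraries, and their part in the P4hb, Pdia3 and Pdia4 results was not tested. Immune markers were also higher by value in some of these libraries: in PparA the lymphocyte sum was 4.95 to 12.9 CPM in runs 1 and 3 and 11.6 to 30.2 CPM in runs 2 and 4, and the plasma cell sum 19.4 to 32.1 and 11.6 to 119 CPM, with 119 CPM in the control library of run 2. Their part in the results was not tested. Of the other lists, goblet markers had 5 of 11 called higher, enteroendocrine markers 2 of 8, and Paneth markers 1 higher (Defa17) and 1 lower (Mptx2) of 21. With the enterocyte sum as a covariate, an alternative added after the values were seen, 0 members were called: P4hb gave 0.05 ± 0.13 (SE; adjusted p = 0.944), Pdia3 -0.26 ± 0.16 (SE; adjusted p = 0.572) and Pdia4 -0.12 ± 0.07 (SE; adjusted p = 0.506). The markers in that sum were themselves higher for Ppara-null, so the fit cannot tell the allele from enterocyte transcripts. Without the 4 PparA libraries of runs 2 and 4, P4hb gave 0.15 ± 0.11 (SE; adjusted p = 0.633), Pdia3 -0.29 ± 0.13 (SE; adjusted p = 0.297) and only Creld2 was called.

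Within groups, the slope of each gene on the log2 enterocyte sum was taken as a further comparison, added after the values were seen. It called 2 of 23 members, P4hb and Pdia3, beside 3.71% of all genes. P4hb changed by 0.93 ± 0.13 (SE; adjusted p = 1.38e-05) per doubling of the sum and Pdia3 by -0.61 ± 0.17 (SE; adjusted p = 0.0385). Dnajb11 gave 0.63 ± 0.19 (SE; adjusted p = 0.0602). In runs 1 and 3 alone 0 members were called, as in runs 2 and 4 alone, and the sign of Pdia3 turned there, to 0.31 ± 1.04 (SE; adjusted p = 0.985) and 0.09 ± 0.32 (SE; adjusted p = 0.999). Without the 2 libraries farthest from the median of the sum, P4hb was still called and Pdia3 was not. The Pdia3 call was also lost without any 1 of 6 PparA libraries.

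**Figure D4:**
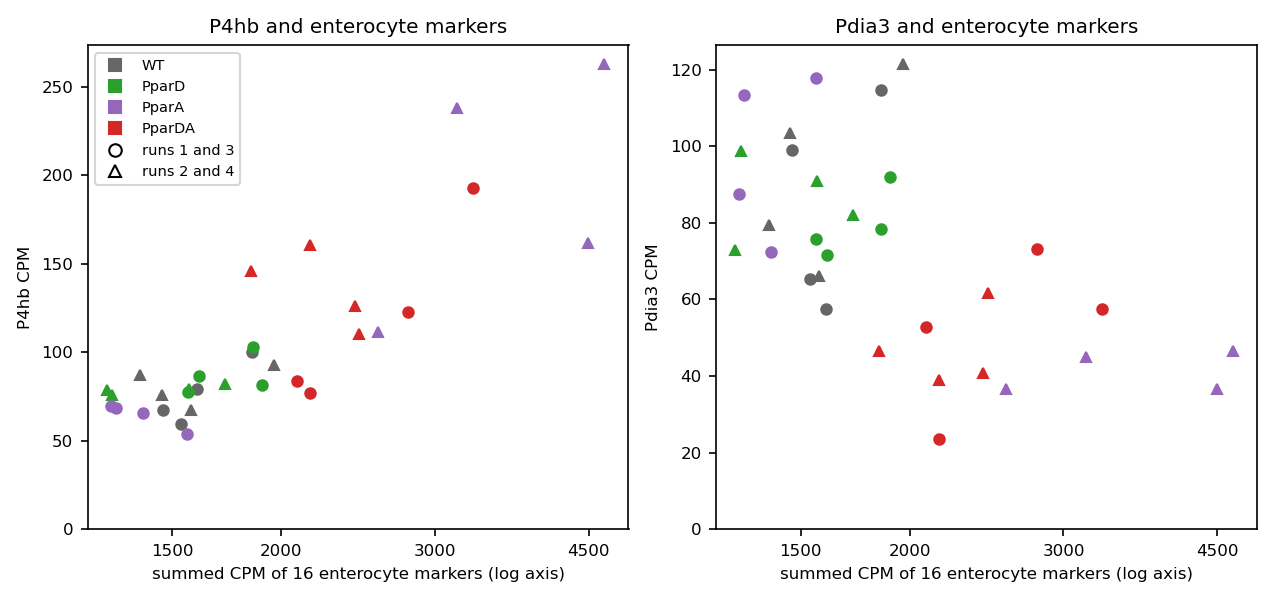
CPM of P4hb and Pdia3 (linear axes) against the summed CPM of 16 enterocyte markers (log axis) in the 32 libraries, coloured by genotype, with circles for runs 1 and 3 and triangles for runs 2 and 4. Purple triangles, the PparA libraries of runs 2 and 4, hold P4hb at 111 to 263 CPM and Pdia3 at 36.5 to 46.6 CPM at an enterocyte sum of 2580 to 4690 CPM.

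For the single mutants and the double mutant against WT, the counts of members called were all 0. They were 0 of 23 for PparD (background 0.204%), PparA (0.562%) and PparDA (1.87%) on the control diet, and under high-fat feeding for PparD (0.017%) and PparA (0.749%). Unadjusted p under 0.05 was met by 1, 2 and 5 members on the control diet (7.71, 8.89 and 13.8% of all genes) and by 3 and 3 under high-fat feeding (3.78 and 11.7%). DESeq2 called 0 in each, with an adjusted p for 12 members in PparD on the control diet and for all 23 in the others. On the high-fat diet P4hb gave 0.92 ± 0.34 (SE; adjusted p = 0.251) in PparA, and it was called in runs 2 and 4 alone with Pdia3 (1.56, adjusted p = 0.00115 and -1.30, adjusted p = 0.00797). It was also called, with Creld2, when low counts were not filtered. Leaving out PparA high-fat library 6 or 30 brought the count for PparA under high-fat feeding to 1. Ppard-fl/fl averaged over Ppara genotype and diet called 0 members (0.954%), with 3 at an unadjusted p under 0.05 (12.3% of all genes) and 0 of 16 by DESeq2. The nearest was Derl2, -0.21 ± 0.06 (SE; adjusted p = 0.0905), and without WT high-fat library 10 the count was 1.

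**Figure D5:**
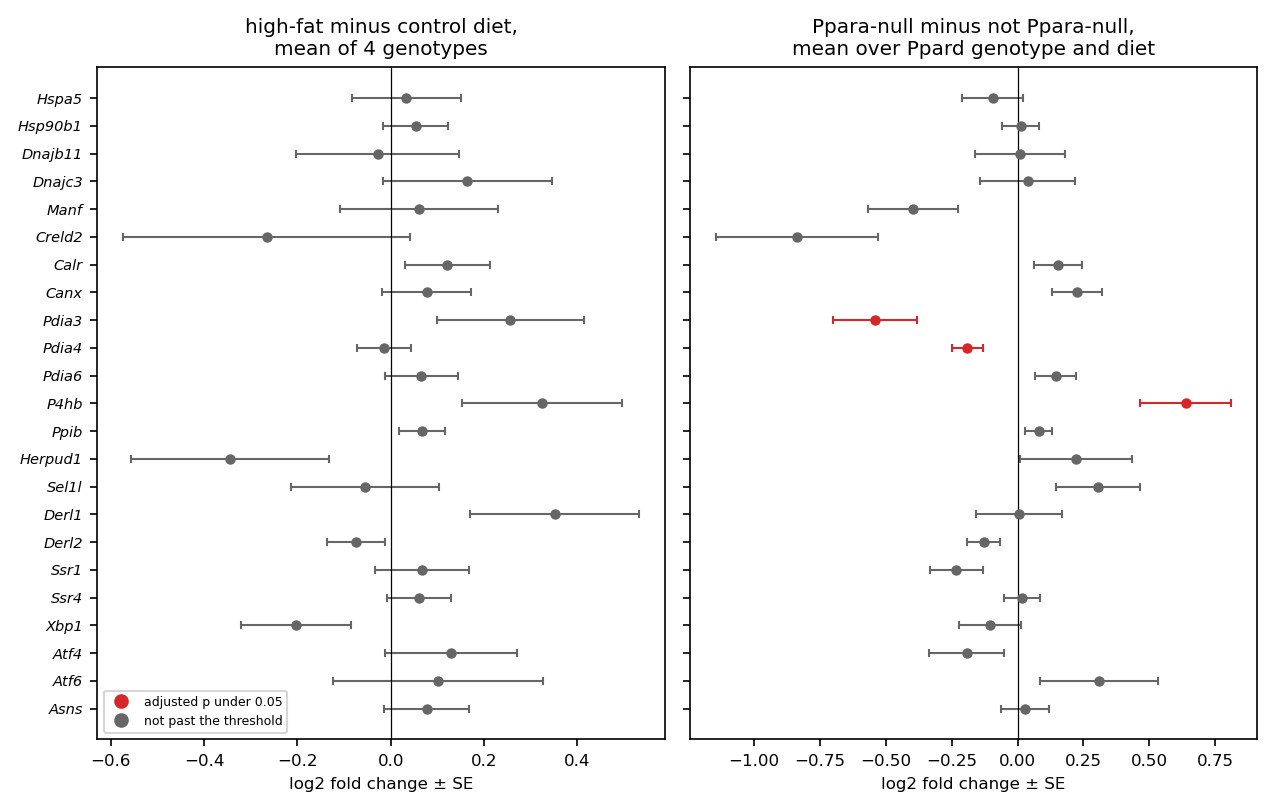
Log2 fold change ± SE of the 23 tested members for high-fat minus control diet, averaged over the 4 genotypes (left), and for Ppara-null minus not Ppara-null, averaged over Ppard genotype and diet (right); red marks an adjusted p under 0.05. Only P4hb (0.64), Pdia3 (-0.54) and Pdia4 (-0.19) are red, all on the right.

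ER-associated degradation returns misfolded chains to the cytosol. Herpud1, a membrane scaffold of that machinery and an Atf4 and Atf6 target, read 24.8, 28.4, 26.4 and 29.3 CPM in WT control and 29.4, 27.3, 24.7 and 18.9 CPM in WT high-fat libraries. PparD had 40.2, 25.3, 19.7 and 24.4 CPM on control and 44.5, 26.8, 18.9 and 14.7 CPM on high-fat diet. The PparD high-fat libraries spread widely around the WT values. PparA had 21.8, 28.6, 33.7 and 29.3 CPM on control and 29.9, 13.3, 18.1 and 18.3 CPM on high-fat diet. PparDA had 23.2, 19.6, 42.3 and 122 CPM on control and 29.6, 17.6, 49.3 and 28.3 CPM on high-fat diet. The 122 CPM of the PparDA control library of run 4 (72 counts) stood apart from the next highest value, 49.3 CPM. PparDA against WT on the control diet gave 0.90 ± 0.40 (SE; adjusted p = 0.294), called only with no filter on low counts, where Pdia3 was called too. The mean diet difference of Herpud1 was -0.35 ± 0.21 (SE; adjusted p = 0.682).

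Sel1l, the adaptor of the Syvn1 ligase, gave a diet difference in WT of -0.63 ± 0.32 (SE; adjusted p = 0.691), at 5 to 15 counts a library. Derl1, a channel component, gave 0.90 ± 0.35 (SE; adjusted p = 0.555) in WT, at 3 to 15 counts a library. Derl2, its relative, was counted more deeply (64 to 130 counts). It gave -0.27 ± 0.12 (SE; adjusted p = 0.939) for diet in PparD and -0.36 ± 0.12 (SE; adjusted p = 0.162) in PparDA against WT on the high-fat diet. Without strand, its reads cannot be told from those of the overlapping Mis12 (198 counts against 3053), nor those of Manf from Dcaf1 (236 counts against 1252).

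The transcription factors of the response were measured at the RNA level. Xbp1 read 56.4, 68.9, 45.1 and 35.2 CPM in WT control and 55.9, 44, 50.8 and 51 CPM in WT high-fat libraries. In PparD, Xbp1 read 40.2, 93.6, 60.6 and 55.9 CPM on control and 20.8, 31.3, 49.3 and 44 CPM on high-fat diet. The PparD control library of run 2 was the highest and the PparD high-fat library of run 1 the lowest of all 32. In PparA, Xbp1 read 49.7, 41.3, 45 and 60.1 CPM on control and 52.3, 43.2, 59.4 and 49.9 CPM on high-fat diet. In PparDA, Xbp1 read 49.6, 37.7, 50.1 and 33.8 CPM on control and 44.4, 38.5, 46.2 and 34.6 CPM on high-fat diet. The diet difference was -0.78 ± 0.24 (SE; adjusted p = 0.476) in PparD and -0.03 ± 0.23 in WT, and their difference was -0.75 ± 0.33, which met an unadjusted p under 0.05 but not the adjusted one.

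Atf4 read 28.9, 21, 18.7 and 26.4 CPM in WT control, 22.1, 30.4, 29 and 13.1 CPM in WT high-fat, 26.8, 17.8, 27.3 and 24.4 CPM in PparD control and 29.6, 34.3, 13.1 and 20.5 CPM in PparD high-fat libraries. In PparA it read 9.33, 20.6, 20.9 and 14.6 CPM on control and 20.9, 26.6, 23.1 and 16.6 CPM on high-fat diet, and in PparDA 27.9, 18.1, 26.6 and 16.9 CPM on control and 28, 20.9, 27.1 and 20.4 CPM on high-fat diet. All groups overlapped, and the mean diet difference was 0.13 ± 0.14 (SE; adjusted p = 0.882). Atf6 spanned 2.90 to 19.1 CPM at 2 to 12 counts a library, and its mean diet difference was 0.10 ± 0.23 (SE; adjusted p = 0.956).

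Asns encodes asparagine synthetase and had the deepest counts of the Atf4 targets among the members. It read 117, 148, 126 and 169 CPM in WT control and 144, 172, 169.9 and 134 CPM in WT high-fat libraries. PparD libraries had 139, 166, 139 and 135 CPM on control and 142, 140.2, 155 and 145 CPM on high-fat diet. The diets overlapped in both genotypes. PparA libraries had 97.9, 156, 136 and 202 CPM on control and 109, 171, 142 and 165 CPM on high-fat diet. PparDA libraries had 130.1, 136, 149 and 154 CPM on control and 97, 178, 166 and 198 CPM on high-fat diet. In these 4 Ppara-null groups the run 1 library was the lowest, and the highest came from run 2 or 4. The mean diet difference was 0.08 ± 0.09 (SE; adjusted p = 0.894), the Ppara-null difference 0.03 ± 0.09 (SE; adjusted p = 0.924), and runs 2 and 4 against runs 1 and 3 gave 0.25 ± 0.08 (SE; adjusted p = 0.117).

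Ssr1 and Ssr4 are subunits of the translocon-associated complex that assists entry into the ER. Ssr1 spanned 31.7 to 89.4 CPM. On the control diet its difference from WT was -0.52 ± 0.20 (SE; adjusted p = 0.45) in PparD, -0.73 ± 0.20 (SE; adjusted p = 0.112) in PparA and -0.49 ± 0.20 (SE; adjusted p = 0.246) in PparDA. Its diet difference was -0.45 ± 0.20 (SE; adjusted p = 0.616) in WT. The diet effect on Ssr1 in PparD minus that in WT was 0.79 ± 0.28, and in PparA minus WT 0.74 ± 0.29 (SE; adjusted p = 0.508). These comparisons share the WT control libraries, in which the run 1 library held 89.4 CPM, and none was called. Ssr4 spanned 233 to 425 CPM, with a mean diet difference of 0.06 ± 0.07 (SE; adjusted p = 0.884).

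The members were then related to transcripts of secretory cells. Within groups, the slope of each gene on the log2 summed CPM of Paneth markers called 1 of 23 members, P4hb, beside 1.06% of all genes. P4hb changed by 0.31 ± 0.07 (SE; adjusted p = 0.0303) for each doubling of the Paneth sum, and DESeq2 called it too. The call was lost with the run as a block (0.40 ± 0.11 (SE; adjusted p = 0.104)), in runs 1 and 3 alone (0.22 ± 0.10 (SE; adjusted p = 0.709)), in runs 2 and 4 alone (0.02 ± 0.10 (SE; adjusted p = 0.979)), and without any 1 of libraries 6, 18, 21, 22, 30 and 31, where adjusted p was 0.0531 to 0.128. Enterocyte markers moved along this slope too: 15 of 15 tested were above 0 and 2 were called, with a median of 0.38. The members' median slope was 0.02, against -0.00 for all genes. Hspa5 gave 0.01 ± 0.06 (SE; adjusted p = 0.961), Xbp1 -0.06 ± 0.06 (SE; adjusted p = 0.821) and Dnajb11 0.21 ± 0.08 (SE; adjusted p = 0.384).

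Goblet and enteroendocrine transcripts gave no member. The slope on the goblet sum called 0 of 23 (background 0.238%), with 1 at an unadjusted p under 0.05 (4.39% of all genes), Pdia6 at 0.18 ± 0.09. The slope on the enteroendocrine sum called 0 of 23 (0.187%), and 0 met an unadjusted p under 0.05 (4.5% of all genes). DESeq2 called 0 in both. The members' medians were 0.04 and -0.02. Leaving Agr2, itself a disulfide isomerase relative, out of the goblet sum also called 0. The SE of a member's slope ran from 0.06 to 0.34 for goblet and 0.04 to 0.24 for enteroendocrine markers.

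For diet, the secretory markers had larger median differences than the members, but their levels also varied widely within groups. In WT on the high-fat diet alone, the Paneth sum ran from 8413 to 55325 CPM. Markers of 1 list are measured in the same libraries, so their signs are not independent. Averaged over genotypes, 20 of 21 Paneth markers were above 0 with a median log2 difference of 0.67, and the 11 goblet markers were all above 0 with a median of 0.42, although none was called. In PparDA the diet values pointed the other way, with 5 of 21 Paneth markers above 0 (median -0.19) and 3 of 11 goblet markers (median -0.08). The PparDA control library of run 4 (library 31) had a Paneth sum of 47756 CPM. The median Paneth sum of PparDA was lower on control, 14086 CPM, than on high-fat diet, 18025 CPM. A diet response particular to PparDA was not tested for these markers. Averaged over genotypes, the median of the 23 members was 0.07. With the secretory marker sums as covariates, the Ppara-null contrast called 0 members, and P4hb gave 0.30 ± 0.17 (SE; adjusted p = 0.505), Pdia3 -0.58 ± 0.18 (SE; adjusted p = 0.0851) and Pdia4 -0.13 ± 0.07 (SE; adjusted p = 0.392). Some goblet markers were themselves called higher for Ppara-null, and the part of secretory transcripts in these differences was not tested.

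A single library was high for several chaperones. The WT control library of run 2 (library 9) was the highest of 32 for 7 of 23 members: Hspa5, Hsp90b1, Pdia4, Dnajb11, Dnajc3, Manf and Creld2. The share of all tested genes that were highest in library 9 was not counted, so whether this is particular to the members is not known. This library ranked 2 for Xbp1 and 3 for Pdia6, Sel1l and Derl2, while Atf4, Atf6 and Asns ranked 17, 23 and 15. Its Paneth sum was 4841 CPM, against medians of 5726 CPM in WT control libraries and 12350 CPM in all libraries. Its goblet sum was 4672 CPM, against medians of 4389 CPM and 4383 CPM. The slope of each gene on log2 Hspa5 within groups, added after the values were seen, called 3 of 22 members (background 0.784%): Manf at 1.15 ± 0.18 (SE; adjusted p = 6.13e-04), Hsp90b1 at 0.40 ± 0.09 (SE; adjusted p = 0.0198) and Dnajc3 at 0.95 ± 0.24 (SE; adjusted p = 0.0483). DESeq2 called Manf and Hsp90b1 of the 14 it gave an adjusted p. Creld2 gave 1.33 ± 0.39 (SE; adjusted p = 0.115) and Pdia4 0.27 ± 0.08 (SE; adjusted p = 0.135), while Atf4 gave -0.23 ± 0.24 and Asns -0.01 ± 0.16. Of the other amino acid and integrated stress response genes, 17 of 25 were above 0 with a median of 0.18, 8 met an unadjusted p under 0.05 (13.5% of all genes) and 0 were called. Without library 9 there were 0 calls, and Manf gave 0.88 (adjusted p = 0.138), Hsp90b1 0.23 (0.474) and Dnajc3 0.59 (0.535). Without WT control library 17, Hsp90b1 was lost too. The Dnajc3 call was lost without any 1 of 25 libraries, with adjusted p of 0.0507 to 0.535. With the run as a block only Manf was called, at 1.11 (adjusted p = 0.00218). Runs 1 and 3 alone, runs 2 and 4 alone and the fit without the 2 libraries farthest from the median also called 0. Of the 7 members highest in library 9, 6 had a promoter window, and Hspa5, Hsp90b1, Dnajc3 and Creld2 hold the ER stress response element there. Of the other tested holders of that element, Pdia6, Canx and Calr ranked 3, 9 and 10 in library 9. Over all members with a promoter window, 8 of 28 hold the element, and a link between it and the values of library 9 was not tested.

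The rest of the pathway was read from 4 lists that hold none of the members, and their calls for Ppara-null stand beside 4.39% of all genes higher and 3.18% lower. For Ppara-null, ER folding and quality control had 1 of 30 tested genes called higher, Dnajb14, an Hsp40 of the ER membrane, at 0.32 ± 0.08 (SE; adjusted p = 0.00701). Translocon, signal peptidase and glycosylation had 1 of 39 called lower, Dad1, a subunit of the oligosaccharyltransferase, at -0.24 ± 0.06 (SE; adjusted p = 0.00419). Amino acid and integrated stress response had 1 of 25 called higher, Eprs, which charges tRNA with glutamate and proline, at 0.40 ± 0.09 (SE; adjusted p = 0.00482). ER stress sensors and regulators had 0 of 6 called, with Ppp1r15b at 0.34 ± 0.23 (SE; adjusted p = 0.485). An unadjusted p under 0.05 for Ppara-null was met by 7 folding, 3 translocon, 4 amino acid and 0 sensor genes, beside 19% of all genes. For the mean diet effect all 4 lists had 0 called, and an unadjusted p under 0.05 was met by 1 folding, 4 translocon, 1 sensor and 0 amino acid genes, beside 9.04% of all genes. The smallest p of each list there belonged to Fkbp2, 0.24 ± 0.11 (SE; adjusted p = 0.501), Alg5, -0.21 ± 0.07 (SE; adjusted p = 0.239), Creb3l4, 0.35 ± 0.14 (SE; adjusted p = 0.412), and Psat1, 0.26 ± 0.12 (SE; adjusted p = 0.617).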

How the data were processed

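RNA of sorted GFP-high intestinal cells was profiled in 32 libraries, 4 for each of 8 groups. The table the authors deposited holds whole numbers per gene, read as rounded estimated counts because Salmon 1.1.0 is named. R 4.0.2, edgeR 3.30.2 and mm10 are also named, without a role, per the submitters' processing notes. Column names gave the group and a library number but no replicate number.

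Here, R 4.3.3 with edgeR 4.0.16 and limma 3.58.1 was used. Genes passing filterByExpr (minimum count 10, total 15) were fitted with TMM scaling and 1 coefficient per group over all 32 libraries. edgeR's quasi-likelihood test gave p-values, adjusted by Benjamini-Hochberg over 5872 genes, with 0.05 as the threshold for a call. Slopes on marker sums or Hspa5 were fitted within groups. DESeq2 1.42.0, other scaling, no filter, a run block, runs apart, marker covariates and leaving out each library were alternatives. The test was checked on simulated data. Total counts per library, 612672 to 724155, limit precision for low genes. The deposited log2 table of the same libraries was not used.

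The members and lists were chosen with earlier results of these data known. By rule, per-library values are given for members called in any comparison or slope and for Hspa5, Hsp90b1, Xbp1, Herpud1, Creld2, Manf, Atf4 and Asns, and other members by range. Untested members, Sdf2l1 included, are given by counts. Of the other lists, called genes or those of smallest p are named.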

Additional observations from a re-analysis of the deposited data

Results flagged for a closer look

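Within groups of 4 libraries, 12 of 184 member and group pairs held a library far from the other 3, close to the share of about 1 in 20 that chance gives. Pairs flagged in the same library are not independent. WT control library 9 was far above its group for Hsp90b1 (376 CPM), Manf (154 CPM), Dnajc3 (49.4 CPM) and Pdia6 (496 CPM). PparD control library 11 was high for Asns (166 CPM) and Canx (95.1 CPM). Single high values were Atf6 in WT control library 17 (15.5 CPM), Hsp90b1 in PparA high-fat library 6 (300.1 CPM), P4hb in PparD high-fat library 20 (103 CPM) and Pdia3 in PparD control library 27 (98.9 CPM). Low values were Dnajb11 in PparD high-fat library 4 (7.41 CPM) and Pdia4 in PparDA control library 31 (289 CPM).

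The Ppara-null effect on P4hb differed between runs 2 and 4 and runs 1 and 3 by 0.93 on the log2 scale in edgeR's test of that difference. That test was added after the values were seen, and its call was lost in many fits that left out 1 library. It averages PparA and PparDA, and the run means lay farther apart in PparA.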

How the results depend on the processing

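The number of members called changed under these settings. These counts stand without the share of all genes called in the same fit, so they cannot be set against a background. With no filter on low counts it was 2 for PparDA against WT on the control diet, 2 for PparA and 2 for PparDA against WT on the high-fat diet, 3 for runs 2 and 4 against runs 1 and 3, and 2 for the difference of the Ppara-null effect between run pairs. In runs 2 and 4 alone it was 2 for PparA and 1 for PparDA against WT on the high-fat diet. In those runs and in runs 1 and 3 alone it was 0 for the Paneth, Hspa5 and enterocyte slopes, and in runs 1 and 3 alone 0 for Ppara-null. With secretory sums as covariates it was 1 for PparDA against WT on the high-fat diet and 0 for Ppara-null. With the enterocyte sum as covariate it was 0 for Ppara-null, and without the 4 PparA libraries of runs 2 and 4 it was 1. Without the 2 libraries farthest from the median it was 0 for the Hspa5 slope and 1 for the enterocyte slope. Leaving out each library gave 1 to 3 for Ppara-null, 0 to 1 for PparA against WT on the high-fat diet, 0 to 1 for Ppard-fl/fl, 0 to 1 for Paneth, 0 to 4 for Hspa5, 1 to 3 for enterocyte and 0 to 1 for the run pair difference. The Pdia3 slope on the enterocyte sum turned to 0.31 in runs 1 and 3 and 0.091 in runs 2 and 4. The causes of these changes were not tested.

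The run of 8 library numbers was also fitted as a replicate block. It gave 1 call for PparDA against WT on the high-fat diet (Calr), 0 for the Paneth slope and 1 for the Hspa5 slope. Sample titles number replicates, but column names carry no such number, so the runs were not matched to it. Deviations within a run correlated at 0.12 to 0.30 on average, 87 of 112 same-run pairs exceeded 0.1, and 31 of 32 libraries correlated best with their own run. Sex-linked transcripts split by run as well, so libraries of a run share at least the sex that these transcripts show. The main fits had no term for run or sex, and their p-values do not account for either. Genes counted at a few reads per library limit the depth of the stress factors.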
